A study of Mus musculus with 9 samples.

Results

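RNase P and RNase MRP are a pair of related enzymes, each built on a catalytic RNA and a largely shared set of proteins. The 9 protein subunits Pop1, Pop4, Pop5, Rpp14, Rpp21, Rpp25, Rpp30, Rpp38 and Rpp40 are described here, of 55487 genes counted. The list was selected on the fold change of Pop1, much lower with both Slc12a9 guides than with the control guide, so those Pop1 values are given without a test. The other 8 genes entered as its partners. The remaining protein subunits (Pop7 and the Rpp25 paralogue Rpp25l), the RNA subunits and genes that work beside these enzymes are set next to them.

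The libraries came from J774A.1, a mouse macrophage line cultured with serum and glutamine and then held without either for 6 h before lysis. Libraries labelled sgRNA 11 or sgRNA 15 carried 1 of 2 guide RNAs against Slc12a9, a member of the cation-chloride cotransporter family, and are called knockdown in 1 label field and knockout in the series' design. The third group, safe sgRNA, carried a control guide and is labelled wild type. Each group had 3 libraries of poly(A) RNA, and all 3 groups had the same medium change, so cells kept in full medium were not compared. The labels name neither clones nor separate cultures. P-values therefore measure the spread between these libraries, which may be technical.

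RNase P removes the leader from the start of precursor tRNAs. RNase MRP cuts the precursor of ribosomal RNA in the first internal spacer. The RNA of each enzyme, Rpph1 for RNase P and Rmrp for RNase MRP, holds the catalytic core and is made by RNA polymerase III. In the human RNase P, Pop1 is the largest protein and touches Rpp20 (Pop7) and Rpp25, Pop5 sits with Rpp14, Rpp30 and Rpp40, and Rpp29 (Pop4) sits with Rpp21 and Rpp38.

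Gene counts summed to between 16405296 and 25613961 per library. Of all genes, 13453 had enough reads to be tested. The targeted gene itself was not lower at the mRNA level, with 65.3 ± 2.38 CPM (reads scaled to a common library size by TMM, the trimmed mean of M-values) for sgRNA 11, 49.97 ± 1.73 for sgRNA 15 and 48.4 ± 4.49 for safe sgRNA (SD, n = 3 each), so groups are named by guide and each direction is that of the libraries so labelled. All 10 markers fixed for macrophages were detected and summed to 9519 to 9824 CPM with sgRNA 11, 7844 to 7915 with sgRNA 15 and 6065 to 6221 with safe sgRNA. Among the 10 markers of fibroblasts, epithelium and T cells, Col1a2, Dcn, Epcam, Krt5 and Cd3e were at 0 in every library, and none of these 3 lists summed to more than 2.61 CPM. The summed macrophage markers were thus higher with either Slc12a9 guide, and their part in the subunits' results was not tested. In bulk RNA, fewer cells that express a gene and less of its RNA per cell cannot be told apart.

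Pop1 stood well apart from its partners. Its level was 13.8, 13.7 and 12.2 CPM in the sgRNA 11 libraries, 16.5, 14.9 and 15.4 CPM in the sgRNA 15 libraries, and 48.8, 46.2 and 42.8 CPM in the safe sgRNA libraries. All 6 libraries with a Slc12a9 guide lay below all 3 controls, with 246 to 354 reads each, against 792 to 1221 reads in safe sgRNA. The fitted level was 28.7% of that in safe sgRNA with sgRNA 11 (log2 fold change -1.80, SE 0.07) and 33.8% with sgRNA 15 (-1.56, SE 0.07). No more than 57 of the 13453 tested genes had a lower log2 fold change with sgRNA 11 and 61 with sgRNA 15, and 25 other genes were as low as Pop1 or lower with both. These values chose the list.

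The list was chosen on the gap of Pop1 to safe sgRNA with both guides, not on the difference between the guides. The levels of Pop1 with sgRNA 11 and sgRNA 15 entered that choice, so the test of their difference is not independent of it. Pop1 averaged 15.6 ± 0.81 CPM with sgRNA 15 and 13.2 ± 0.88 CPM with sgRNA 11 (SD, n = 3 each), and the groups did not overlap. The fitted log2 difference was 0.23 (SE 0.08, 95% interval 0.07 to 0.40, edgeR adjusted p = 0.0179), in a comparison where 33.5% of tested genes were called. It missed the threshold with DESeq2 (adjusted p = 0.0562), without sgRNA 11 replicate 3 (log2 0.17, edgeR adjusted p = 0.149) and without sgRNA 15 replicate 1 (log2 0.18, edgeR adjusted p = 0.130).

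**Figure D1:**
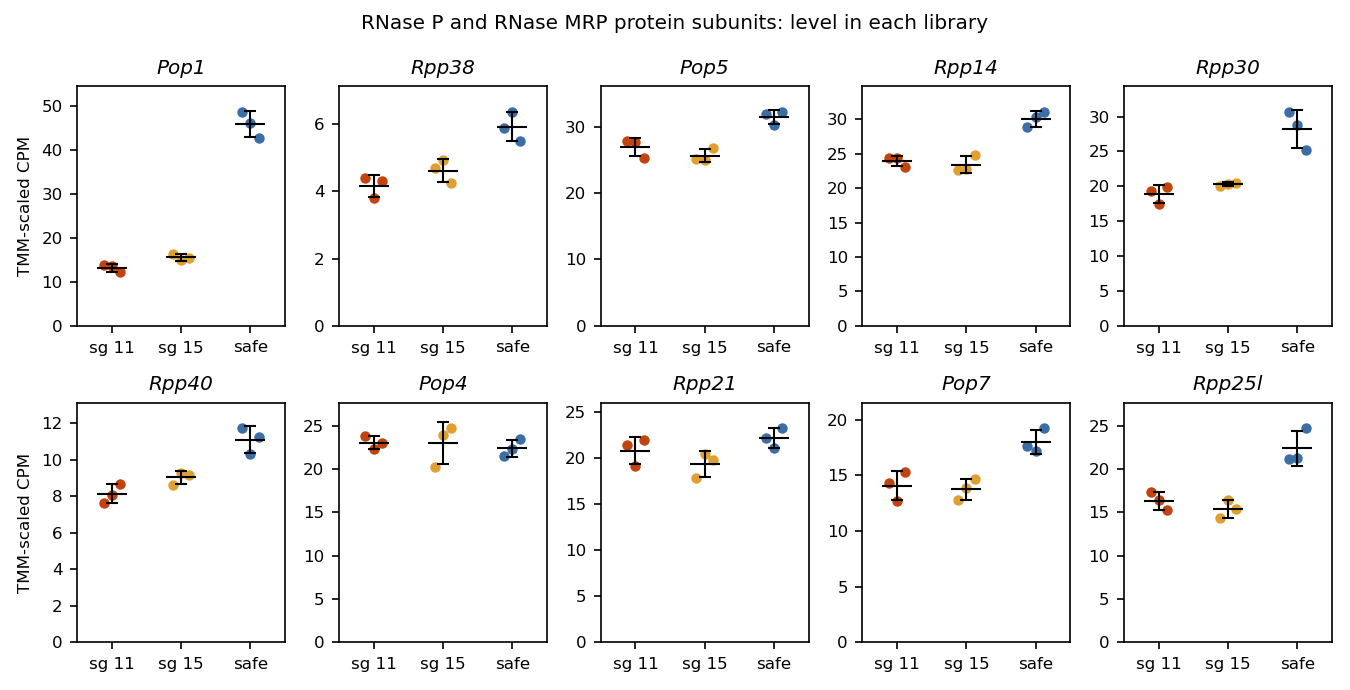
Level of the 10 tested protein subunits in each library, in CPM scaled between libraries, from 0. Coloured points are the 3 libraries of each group, and black bars give the mean and SD. Pop1 shows the widest gap, at 12.2 to 16.5 CPM with the Slc12a9 guides and 42.8 to 48.8 CPM with safe sgRNA, and the Pop4 groups overlap.

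Of the other 8 listed subunits, 7 had enough reads to be tested, all but Rpp25. Most were modestly lower with the Slc12a9 guides, far less than Pop1. With sgRNA 11, 5 of the 7 fell, 0 rose and 2 were not called, where 32.4% of all tested genes fell and 33.3% rose. With sgRNA 15, 6 fell, 0 rose and 1 was not called, where 30.7% of all tested genes fell and 32.2% rose. All 3 libraries with sgRNA 11 were below all 3 controls for 5 of the 7 (33.3% of all tested genes), and all 3 with sgRNA 15 for 6 of the 7 (32.3%). The list was built around these comparisons, so nothing is read from these shares. Their median log2 fold change was -0.33 with sgRNA 11 and -0.30 with sgRNA 15, against 0.01 over all tested genes in each comparison. Fitted levels ran from 66.8 to 103% of those in safe sgRNA with sgRNA 11, and from 71.7 to 102% with sgRNA 15. The 2 comparisons share the safe sgRNA libraries and are not independent.

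Pop5, Rpp14, Rpp30 and Rpp40, which sit together in the human enzyme, all fell with both guides. Rpp30, a subunit that pairs with Pop5, had 19.3, 17.5 and 19.9 CPM with sgRNA 11, 20.1, 20.4 and 20.5 CPM with sgRNA 15, and 30.7, 28.8 and 25.2 CPM with safe sgRNA. No library with a Slc12a9 guide reached the lowest control. Its log2 fold change was -0.58 with sgRNA 11 (SE 0.07, edgeR adjusted p = 1.40e-11) and -0.48 with sgRNA 15 (SE 0.07, edgeR adjusted p = 6.91e-09), the lowest of the 7 in each comparison.

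Rpp40 had 7.66, 8.09 and 8.70 CPM with sgRNA 11, 8.64, 9.30 and 9.20 CPM with sgRNA 15, and 11.7, 10.3 and 11.3 CPM with safe sgRNA, again without overlap with the controls. It fell by 0.45 on the log2 scale with sgRNA 11 (SE 0.10, edgeR adjusted p = 8.06e-05) and by 0.30 with sgRNA 15 (SE 0.10, edgeR adjusted p = 0.00775). Rpp14 averaged 23.9 ± 0.75 CPM with sgRNA 11, 23.4 ± 1.26 with sgRNA 15 and 30.1 ± 1.16 with safe sgRNA (SD, n = 3 each). Each library with a Slc12a9 guide was below each control, and Rpp14 fell by 0.33 (SE 0.06, edgeR adjusted p = 5.89e-06) and by 0.36 (SE 0.07, edgeR adjusted p = 9.55e-07) with sgRNA 11 and sgRNA 15. Pop5 averaged 26.9 ± 1.40, 25.6 ± 0.99 and 31.5 ± 1.05 CPM for sgRNA 11, sgRNA 15 and safe sgRNA (SD, n = 3 each). It fell by 0.23 (SE 0.06, edgeR adjusted p = 9.49e-04) and by 0.30 (SE 0.06, edgeR adjusted p = 1.90e-05), and its groups did not overlap with the controls either.

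Pop4, Rpp21 and Rpp38 did not share 1 pattern. Pop4, known in human as Rpp29, had 23.8, 22.3 and 23.0 CPM with sgRNA 11, 20.2, 23.9 and 24.7 CPM with sgRNA 15, and 21.5, 22.3 and 23.4 CPM with safe sgRNA. The 3 groups overlapped. Its log2 fold change was 0.04 with sgRNA 11 (95% interval -0.10 to 0.19, edgeR adjusted p = 0.604) and 0.03 with sgRNA 15 (-0.11 to 0.18, edgeR adjusted p = 0.693). The lower bounds correspond to 0.93 of the control level with either guide, and the sign of either value changed with the GC and length correction and, with sgRNA 15, with the libraries used (values in the closing section).

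Rpp21, a zinc-binding protein known from RNase P, had 21.3, 19.1 and 21.9 CPM with sgRNA 11, 17.8, 20.4 and 19.8 CPM with sgRNA 15, and 22.1, 21.0 and 23.2 CPM with safe sgRNA. Its sgRNA 11 libraries overlapped the controls, while all 3 sgRNA 15 libraries were below them. It was not called with sgRNA 11 (log2 -0.08, 95% interval -0.23 to 0.06, edgeR adjusted p = 0.309; corrected for GC and length, log2 -0.21, adjusted p = 0.0129). With sgRNA 15 it fell by 0.19 (SE 0.07, edgeR adjusted p = 0.0202). That call was lost with DESeq2 (adjusted p = 0.0680), with scaling by library size alone (edgeR adjusted p = 0.0629), without safe sgRNA replicate 3 (0.060) and without sgRNA 15 replicate 1 (0.151, all edgeR adjusted p).

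Rpp38, a protein that binds kink turns in RNA, had the fewest reads of the tested subunits, 68 to 147 per library. It had 4.40, 3.79 and 4.31 CPM with sgRNA 11, 4.68, 4.92 and 4.24 CPM with sgRNA 15, and 5.87, 6.37 and 5.51 CPM with safe sgRNA. All 6 values with a Slc12a9 guide were below the controls. Rpp38 fell by 0.50 with sgRNA 11 (SE 0.14, edgeR adjusted p = 0.00155) and by 0.35 with sgRNA 15 (SE 0.14, edgeR adjusted p = 0.0262). The second call was lost with DESeq2 (adjusted p = 0.0872), without safe sgRNA replicate 2 (edgeR adjusted p = 0.0826) and without sgRNA 15 replicate 3 (edgeR adjusted p = 0.0736).

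Rpp25, which binds RNA as a dimer with Pop7, was close to undetected. It had 0 to 5 reads in sgRNA 11 libraries, 0 to 4 in sgRNA 15 libraries and 0 to 6 in safe sgRNA libraries, 27 reads in all. A count of 0 in a library of this series allows up to 3 reads, or 0.117 to 0.183 CPM, so no difference between groups was detectable for Rpp25 at this depth (intervals and limits cover counting error only). Its paralogue Rpp25l was present in every library.

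Rpp25l and Pop7 were not among the 9 listed genes, and both fell with both guides. Rpp25l had 17.4, 16.4 and 15.3 CPM with sgRNA 11, 14.3, 16.5 and 15.4 CPM with sgRNA 15, and 21.1, 21.3 and 24.7 CPM with safe sgRNA. The groups with a Slc12a9 guide lay below the controls, by 0.45 on the log2 scale for sgRNA 11 (SE 0.08, edgeR adjusted p = 5.32e-07) and by 0.53 for sgRNA 15 (SE 0.08, edgeR adjusted p = 9.94e-09). Pop7 had 14.3, 12.7 and 15.3 CPM with sgRNA 11, 12.7, 13.8 and 14.7 CPM with sgRNA 15, and 17.7, 17.2 and 19.2 CPM with safe sgRNA, without overlap. It fell by 0.35 (SE 0.08, edgeR adjusted p = 1.63e-04) and by 0.39 (SE 0.08, edgeR adjusted p = 3.28e-05) with sgRNA 11 and sgRNA 15.

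**Figure D2:**
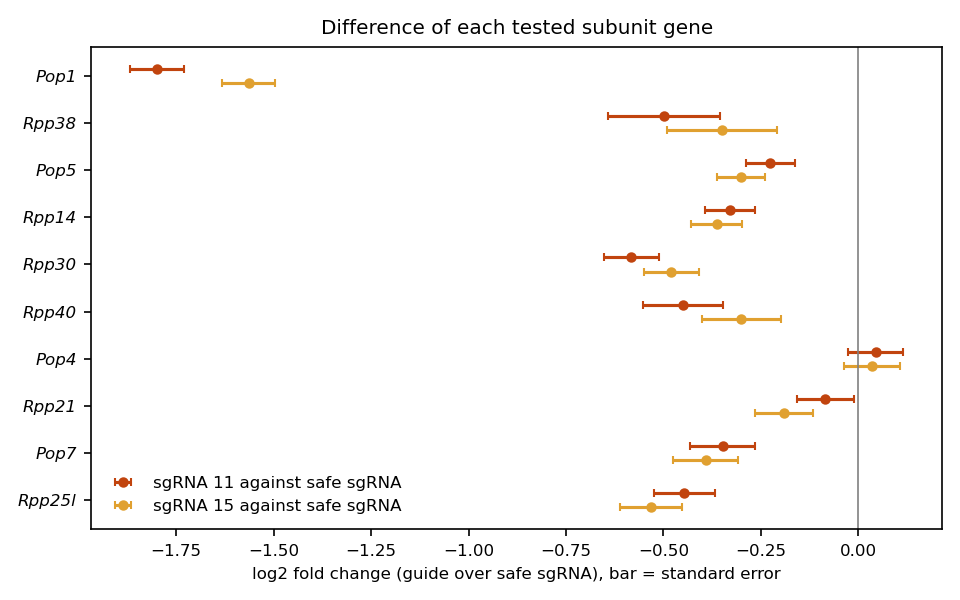
Log2 fold change of each tested subunit gene, with its standard error, for sgRNA 11 and sgRNA 15 against safe sgRNA. Pop1 lies at -1.80 and -1.56, Pop4 at 0.04 and 0.03, and the other subunits lie between them.

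Between sgRNA 15 and sgRNA 11, none of the 7 tested partners of Pop1 was called by edgeR at an adjusted p under 0.05, and neither was Pop7 or Rpp25l. Of all tested genes, 33.5% were called in this comparison. Rpp30 alone of the 7 had all 3 sgRNA 15 libraries above all 3 sgRNA 11 libraries, as did 22.8% of all tested genes. Log2 differences of the 7 ran from -0.11 (Rpp21) to 0.15 (Rpp40). The widest 95% interval was that of Rpp38, from -0.15 to 0.45, and the narrowest that of Pop5, from -0.20 to 0.05.

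Levels were compared between genes only per length of exon. That length joins all annotated exons of a gene, 6540 bases for Rpp40 and 856 for Rpp25l. It is not the length of the transcripts expressed here, so the order between genes is approximate, and the SD does not cover this. In CPM per kilobase the order in safe sgRNA was Rpp25l (26.2 ± 2.36), Rpp21 (18.2 ± 0.90), Pop7 (16.7 ± 0.99), Pop5 (13.7 ± 0.46), Rpp14 (12.5 ± 0.48), Pop1 (12.1 ± 0.79), Pop4 (7.86 ± 0.34), Rpp30 (6.75 ± 0.67), Rpp38 (5.68 ± 0.41), Rpp40 (1.70 ± 0.11) and Rpp25 (0.12 ± 0.11; SD, n = 3 each). The neighbours Rpp21 and Pop7, Rpp14 and Pop1, and Rpp30 and Rpp38 overlapped in their mean ± SD in safe sgRNA. With sgRNA 11 Pop1 was at 3.49 ± 0.23 CPM per kilobase and with sgRNA 15 at 4.10 ± 0.21, which put it 9th of the 11 protein subunits in both, against 6th in safe sgRNA. The order of the other 10 among themselves was the same in all 3 groups.

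The RNA subunits gave no values. Rpph1 and both gene models of Rmrp were at 0 in all 9 libraries, in libraries made from poly(A) RNA. Both Rmrp models lie on the minus strand of mm10 chromosome 4, from 43492783 to 43493063 and from 43492788 to 43493058, so that reads there fit more than 1 gene, and 73.0% of the Rpph1 exon lies in exons of Ccnb1ip1 on the same strand. The counts therefore say nothing of the RNA subunits.

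The 9 listed genes lie on 9 different mouse chromosomes, and Pop7 shares chromosome 5 with Pop5. Pop7 (ENSMUSG00000029715, mm10 chromosome 5, 137501438 to 137502518, minus strand) lies 168 kb above Slc12a9, the gene the guides target. Of its 3 nearest tested neighbours on either side, Gigyf1 rose with sgRNA 11 (log2 0.30, SE 0.05, edgeR adjusted p = 5.84e-07) and was not called with sgRNA 15 (log2 0.05, edgeR adjusted p = 0.473), as was the case for Slc12a9 (log2 0.43 and 0.05). Gm8066 rose with sgRNA 11 (log2 0.53, edgeR adjusted p = 0.0290; 0.110 with DESeq2, and 0.0551 to 0.204 without any 1 of safe sgRNA replicates 1, 2 and 3 and sgRNA 11 replicates 1 and 3) and was not called with sgRNA 15 (log2 0.33, adjusted p = 0.212). Trip6 fell with sgRNA 15 (log2 -0.46, edgeR adjusted p = 0.00977; 0.0513 without safe sgRNA replicate 1) and not with sgRNA 11 (log2 -0.11, adjusted p = 0.528). Ephb4 (-0.08 and -1.12; called with sgRNA 15 at -1.49 without safe sgRNA replicate 3 and at -1.23 after the GC and length correction, edgeR adjusted p = 0.0201 and 0.0448) and 9130604C24Rik (0.65 and 0.38) were not called with either guide.

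Pop1 (ENSMUSG00000022325, mm10 chromosome 15, 34495304 to 34530648, plus strand) starts 49 bases from the start of Rida, which runs the other way. Rida, a deaminase that clears reactive imines, moved opposite to Pop1. It averaged 9.34 ± 1.11 CPM with sgRNA 11, 10.4 ± 0.47 with sgRNA 15 and 6.43 ± 0.49 with safe sgRNA (SD, n = 3 each), and rose by log2 0.54 (SE 0.11, edgeR adjusted p = 1.86e-05) and 0.68 (SE 0.11, edgeR adjusted p = 1.02e-07). None of the other 10 protein subunits has a coding gene that starts on the other strand within 1000 bases upstream, an arrangement found for 11.2% of 11280 tested coding genes. That search took coding genes only. Pop7 has 9130604C24Rik on the other strand, which starts 0.155 kb from its own start.

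Beyond Rida, the neighbours of Pop1 showed no common direction. On the lower side Laptm4b, a lysosomal membrane protein, rose with both guides (log2 0.59 and 0.87, edgeR adjusted p = 3.44e-10 and 2.41e-17), the ribosomal protein gene Rpl30 rose with sgRNA 11 (0.21, adjusted p = 0.0470) and had -0.02 with sgRNA 15 (adjusted p = 0.815), and Matn2 (0.71 and 0.25) and 9930017N22Rik (-0.69 and -0.49) were not called. With sgRNA 11, Rpl30 and Matn2 (edgeR adjusted p = 0.0530) sat near the threshold, and 9930017N22Rik (0.135) was farther from it. The Rpl30 call was lost with the size factors of RLE (relative log expression; edgeR adjusted p = 0.0506) and without safe sgRNA replicate 2 or 3, sgRNA 11 replicate 1 or 3, or sgRNA 15 replicate 3 (0.0642 to 0.106). Matn2 was called with limma-voom (adjusted p = 0.0497), with library size alone (0.0429), and without safe sgRNA replicate 1 (0.0301) or sgRNA 11 replicate 3 (0.0495), and with the replicate block (0.0465). 9930017N22Rik was called at -1.22 without sgRNA 11 replicate 1 (edgeR adjusted p = 0.0340). On the higher side Vps13b rose with both (0.43 and 0.42, edgeR adjusted p = 2.01e-19 and 1.66e-18) and Cox6c fell with both (-0.18 and -0.14, adjusted p = 2.36e-06 and 1.54e-04). Vps13b and Cox6c overlap in position on opposite strands, so both values are uncertain. The kinase gene Stk3 fell with sgRNA 11 (-0.43, edgeR adjusted p = 1.84e-11) and had 0.10 with sgRNA 15 (adjusted p = 0.0648; called higher with library size alone, 0.0105, and under the filter of 5 CPM, 0.0320). Polr2k, a subunit shared by the RNA polymerases, fell with sgRNA 11 (-0.35, edgeR adjusted p = 0.00367; 0.145 after the GC and length correction and 0.0584 without sgRNA 11 replicate 3) and had -0.11 with sgRNA 15 (adjusted p = 0.394), and Spag1 (-0.55 and -0.36) was not called (-0.73 with sgRNA 11 without safe sgRNA replicate 2, edgeR adjusted p = 0.0291).

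**Figure D3:**
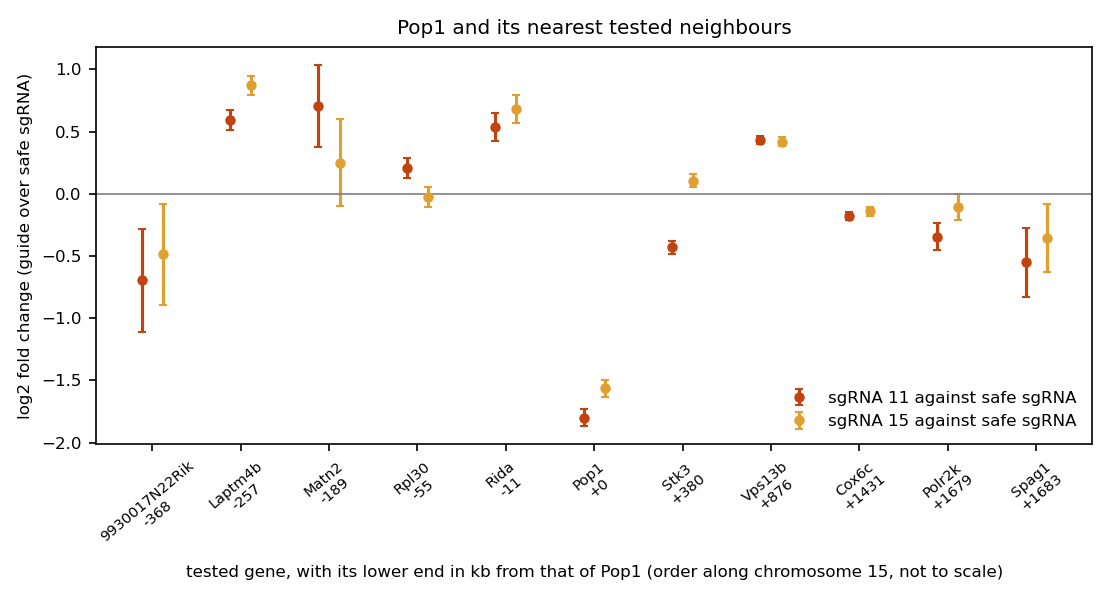
Log2 fold change, with its standard error, of Pop1 and its 5 nearest tested genes on either side, in their order along chromosome 15; the number under a name is the distance in kilobases between lower ends. Pop1 is the lowest point with both guides, and Rida, which starts beside it, lies at 0.54 and 0.68.

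Promoter windows of RefSeq (GRCm38.p6, 250 bases before to 50 after a start) were held for 9 of the 11 protein subunits, not for Pop1 and Rpp21. They were searched on both strands for CACGTG (E-box), TGACGT (core of the cAMP response element), CCGGAA (core of ETS sites), GCATGCG (core of NRF1 sites), CCAAT and GGGCGG (GC box), none of which is a measured site. The windows of 3 genes are shown, those of Rpp30 and Rpp25l, which fell most with the guides among the partners of Pop1 in and outside the list, and that of Pop4, which was not called. Each runs 5′ to 3′ on the gene's strand, and capitals mark a motif or its reverse complement.
Rpp30 (chr19:36083466-36083765, plus strand): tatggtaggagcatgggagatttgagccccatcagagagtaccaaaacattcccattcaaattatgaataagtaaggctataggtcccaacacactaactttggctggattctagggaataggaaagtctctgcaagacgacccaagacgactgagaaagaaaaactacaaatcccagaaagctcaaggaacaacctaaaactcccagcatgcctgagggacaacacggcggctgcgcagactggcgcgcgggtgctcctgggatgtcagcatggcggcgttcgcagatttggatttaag
Rpp25l (chr4:41713468-41713767, minus strand): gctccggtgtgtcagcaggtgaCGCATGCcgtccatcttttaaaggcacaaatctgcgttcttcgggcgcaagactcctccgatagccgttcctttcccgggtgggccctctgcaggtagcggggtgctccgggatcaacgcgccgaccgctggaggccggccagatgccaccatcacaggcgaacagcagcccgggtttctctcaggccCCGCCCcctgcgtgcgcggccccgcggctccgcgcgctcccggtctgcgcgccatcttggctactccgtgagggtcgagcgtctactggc
Pop4 (chr7:38271299-38271598, minus strand): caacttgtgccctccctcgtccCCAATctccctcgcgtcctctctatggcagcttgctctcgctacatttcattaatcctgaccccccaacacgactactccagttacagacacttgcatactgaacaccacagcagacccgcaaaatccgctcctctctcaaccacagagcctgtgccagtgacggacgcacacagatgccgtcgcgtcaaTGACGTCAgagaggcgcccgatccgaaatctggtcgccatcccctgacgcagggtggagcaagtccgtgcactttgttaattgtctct
The Rpp30 window held none of these letters. The Rpp25l window held an NRF1 core and a GC box, and the Pop4 window held a CCAAT and a pair of overlapping TGACGT matches on opposite strands. Over the 9 windows, GGGCGG was found in 6 (35.7% of 32851 windows of all genes), CCAAT in 2 (37.4%), TGACGT in 2, those of Rpp38 and Pop4 (7.5%), and CACGTG in 1, that of Rpp38 (7.2%). CCGGAA was in 1 (14.9%) and GCATGCG in 1 (3.6%). Of the genes that fell and had a window, Pop5, Rpp14, Rpp40, Pop7 and Rpp25l held GGGCGG, and Rpp30 and Rpp38 did not, so none of these 6 motifs was in all of them.

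The 5 genes nearest to Pop1 in the size and course of their change over the 9 libraries did not include its partners. Likeness was the root mean square difference of log2 CPM after centring each gene, among 9254 named coding genes with a mean of at least 5 CPM. The nearest were Lpl, a lipoprotein lipase (0.10; Pearson r = 0.996), Fubp1, a single-stranded DNA binding protein (0.11; r = 0.993), the chemokine Ccl12 (0.13; r = 0.987), the lactate transporter Slc16a1 (0.14; r = 0.991) and the transcription elongation factor Ell2 (0.14; r = 0.985). The 9 libraries share the gap between guides and controls on which Pop1 was chosen. Levels were centred and not scaled, so the measure largely follows the size of that gap. Partners with a much smaller gap could not rank near Pop1, and nothing is read from their places. Rpp38, at a mean of 4.90 CPM, was below the cut for the candidates. Fubp1, for example, had 43.8, 41.0 and 43.3 CPM with sgRNA 11, 53.8, 54.7 and 53.8 CPM with sgRNA 15, and 143, 138 and 136 CPM with safe sgRNA. Of the subunits, Rpp30 came nearest to Pop1 (0.55), with 810 of the 9254 genes nearer, and Pop4 was farthest (0.82), with 5130 genes nearer.

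Genes that act at the same RNAs were lower in part. Each count below is to be read against the shares of all tested genes, of which 32.4% fell and 33.3% rose with sgRNA 11, and 30.7% fell and 32.2% rose with sgRNA 15. Precursors of ribosomal RNA, which RNase MRP cuts, are also trimmed by a set of nucleases and their partners, of which 10 were listed. With sgRNA 11, 9 of the 10 fell and 0 rose (all but Nol12, log2 -0.10), and the median log2 fold change was -0.35. With sgRNA 15, 9 fell and 0 rose (all but Fcf1, log2 -0.07), and the median was -0.34; the 9 became 7 with scaling by library size alone and 8 with DESeq2. Nol9, a kinase that acts on the ends of cut precursors, averaged 49.95 ± 1.25 CPM with sgRNA 11, 57.1 ± 0.86 with sgRNA 15 and 110 ± 1.14 with safe sgRNA (SD, n = 3 each), and fell by 1.14 and by 0.95 on the log2 scale (edgeR adjusted p = 7.71e-42 and 1.51e-36). The exonuclease Xrn2 fell by 0.37 and 0.33, the endonuclease Nob1 by 0.52 and 0.52 and Rcl1 by 0.66 and 0.55 (edgeR adjusted p at most 2.15e-19 for Xrn2 and Nob1, and 1.35e-16 for Rcl1).

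The steps that follow RNase P on tRNA showed both directions. Of 4 genes of tRNA end maturation, 3 fell and 1 rose with each guide (all tested genes: 32.4% fell and 33.3% rose with sgRNA 11, 30.7% and 32.2% with sgRNA 15). Ssb, the La protein that shields new polymerase III transcripts, averaged 104 ± 1.75, 119 ± 4.70 and 165 ± 3.81 CPM for sgRNA 11, sgRNA 15 and safe sgRNA (SD, n = 3 each), and fell by 0.67 and 0.47 on the log2 scale. It shares 25.5% of its exons with genes on the other strand, which leaves its value uncertain. Elac2, which removes the trailer of precursor tRNAs, fell by 0.43 and 0.52, and Trnt1, which adds the terminal CCA, fell by 0.55 and 0.29. The related gene Elac1 rose by 0.73 and 0.43 (edgeR adjusted p at most 6.45e-06 for all 4 genes with both guides). Of 11 genes of tRNA splicing, 5 fell, 2 rose and 4 were not called with sgRNA 11, and 7 fell, 2 rose and 2 were not called with sgRNA 15. The share that fell with sgRNA 11 was not far from the 32.4% of all tested genes. The 7 that fell with sgRNA 15 became 5 with DESeq2, with library size alone, and without safe sgRNA replicate 3 or sgRNA 15 replicate 3. The ligase subunit Rtcb (log2 0.41 and 0.20) and the endonuclease subunit Tsen34 (0.43 and 0.18) rose, while Ddx1 (-0.41 and -0.33), a partner of Rtcb, and Tsen15 (-0.32 and -0.32) fell. Tsen34 shares 10.9% of its exons with Mboat7 on the other strand, so the value is uncertain where counting may not use strand. With sgRNA 15 its call was lost after the GC and length correction (edgeR adjusted p = 0.0557), which left 1 gene of the list called higher.

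Mitochondria use a separate RNase P made of protein alone, of 3 subunits. Trmt10c, its methyltransferase subunit, averaged 13.7 ± 1.23 CPM with sgRNA 11, 18.5 ± 1.29 with sgRNA 15 and 25.2 ± 2.67 with safe sgRNA (SD, n = 3 each). It fell by 0.88 and 0.46 on the log2 scale (edgeR adjusted p = 5.83e-17 and 1.72e-07), and the guides differed (edgeR adjusted p = 2.92e-05). The nuclease subunit, Prorp in RefSeq and 1110008L16Rik in the annotation, fell by 0.27 and 0.30 (edgeR adjusted p = 0.00231 and 9.99e-04). Hsd17b10, a dehydrogenase that is the third subunit, rose with sgRNA 11 (0.16, edgeR adjusted p = 0.00330) and had 0.07 with sgRNA 15 (adjusted p = 0.217).

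RNA polymerase III makes the precursor tRNAs and both RNA subunits. Of 18 genes for its subunits, 13 fell, 3 rose and 2 were not called with sgRNA 11, and 12 fell, 3 rose and 3 were not called with sgRNA 15, with medians of -0.29 and -0.24 (all tested genes: 32.4% fell and 33.3% rose with sgRNA 11, 30.7% and 32.2% with sgRNA 15). Those that fell with both guides included Polr2l, shared with the other polymerases (log2 -0.88 and -0.84), Polr3e (-0.70 and -0.64) and Polr3f (-0.57 and -0.37), while Polr3gl rose (1.00 and 0.78). Polr3gl averaged 33.2 ± 2.32, 28.6 ± 1.04 and 16.5 ± 1.94 CPM for sgRNA 11, sgRNA 15 and safe sgRNA (SD, n = 3 each). Polr3g, the paralogue that takes the same place in the enzyme, fell by 0.55 and 0.27 (edgeR adjusted p = 1.48e-06 and 0.0145); it was singled out after its values were seen. Of 19 factors that guide the polymerase, 12 fell, 3 rose and 4 were not called with sgRNA 11, and 10 fell, 2 rose and 7 were not called with sgRNA 15. The number that fell ranged from 8 to 12 with sgRNA 11 and from 8 to 13 with sgRNA 15 over the alternatives. With sgRNA 11 it was 8 with DESeq2, and 9 with library size alone, with either other filter on low counts, and without safe sgRNA replicate 1 or sgRNA 11 replicate 1 or 2. With sgRNA 15 it was 8 with DESeq2 and library size alone, and 13 after the GC and length correction. Bdp1, of the initiation factor TFIIIB, fell (-0.65 and -0.44), as did the TFIIIC subunits Gtf3c6 (-0.49 and -0.54) and Gtf3c5 (-0.38 and -0.33). Maf1, the repressor of polymerase III, rose and averaged 176 ± 1.80 CPM with sgRNA 11, 154 ± 4.88 with sgRNA 15 and 117 ± 1.17 with safe sgRNA (log2 0.58 and 0.39, SD, n = 3 each, edgeR adjusted p = 2.32e-30 and 1.29e-19).

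**Figure D4:**
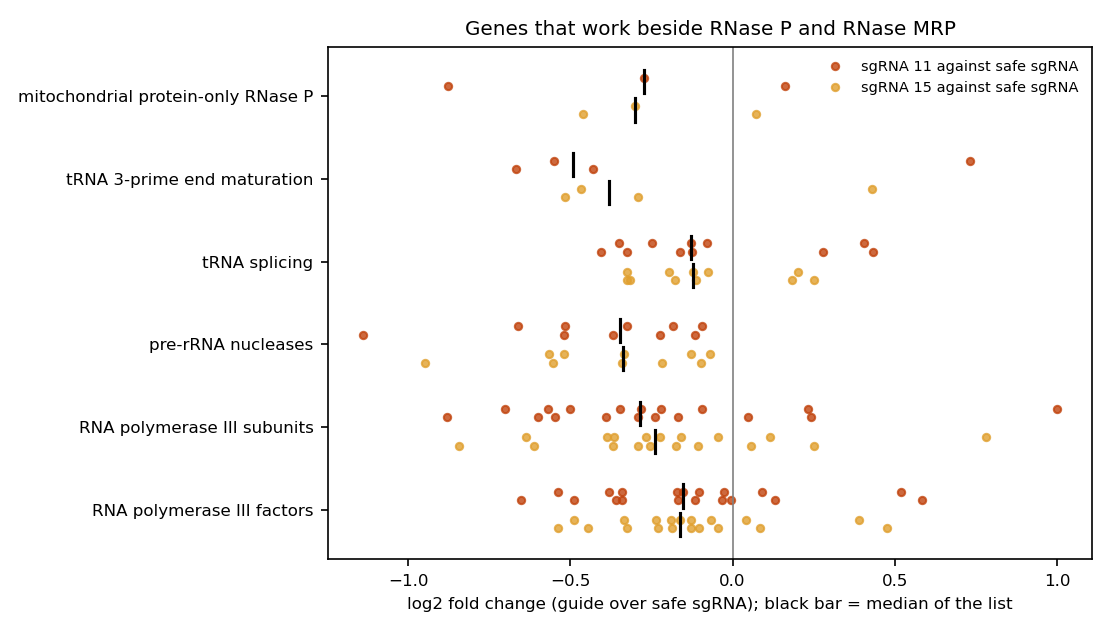
Log2 fold change of every tested gene in 6 lists of genes that act beside RNase P and RNase MRP, for sgRNA 11 and sgRNA 15 against safe sgRNA; black bars are medians. All 10 points of the pre-rRNA nucleases lie below 0 with either guide, and the other lists hold points on both sides.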

How the data were processed

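RNA was sequenced from 9 J774A.1 libraries, grouped by the guide in their labels. The authors deposited counts of reads per gene, made with STAR and HTSeq on mm10, per the submitters' processing notes; the sources used here name no version, annotation, counting mode or use of strand. Reads in genes were 79.3 to 80.7% of each table. HTSeq's tallies of other reads (no feature at most 4.60%, ambiguous at most 6.56%, low quality at most 2.03%, not aligned at most 1.06%, aligned more than once at most 6.69%) stayed out of library sizes and tests, and ambiguous reads are lost for overlapping genes.

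All 102 list entries matched an identifier in GENCODE M21 (mm10), 1 through a synonym. Counts were tested with edgeR 4.0.16 in R 4.3.3, with filterByExpr (minimum count 10), TMM factors of 0.979 to 1.02, a robust quasi-likelihood fit of all 9 libraries (6 residual degrees of freedom) and 2-sided tests with Benjamini-Hochberg adjustment over 13453 genes in each of 4 contrasts, at 0.05. Standard errors come from the F statistics. CPM are TMM-scaled, and log2 CPM for likeness used a prior count of 2. Members, lists, tests and alternatives were chosen with earlier results of these data known. Named genes were the subunits, Slc12a9, up to 4 genes per list ranked by p for the guides' mean, the 5 genes most like Pop1, and 5 tested neighbours on each side of Pop1 and 3 of Pop7; head-to-head starts were added afterwards. Alternatives were DESeq2 1.42.0, limma-voom (limma 3.58.1), other scalings, filters and designs, and each library left out. In simulated data for sgRNA 11 against safe sgRNA with 13254 genes in the fit, the test recovered 70% of 50 genes changed 1.2-fold and 100% of 50 changed 1.5-fold, and called 5 of 13054 unchanged genes. Changed genes were few, in random directions and all of at least 5 CPM, while 8849 genes were called in the real comparison. The simulation therefore does not test scaling or error control under so many changes, nor genes as low as Rpp38. No replicate pair agreed within sampling noise (chi-square per degree of freedom 1.76 to 6.83).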

Additional observations from a re-analysis of the deposited data

Results flagged for a closer look

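Pop1 was the only one of the 10 tested protein subunits called by the edgeR test of sgRNA 15 against sgRNA 11 (log2 0.23, adjusted p = 0.0179). This comparison called 33.5% of all tested genes, and for Pop1 it is not independent of the choice of the list. A guide difference is not shown to be particular to Pop1. The 95% intervals of Rpp30 (-0.05 to 0.25), Rpp38 (-0.15 to 0.45) and Rpp40 (-0.06 to 0.36) held 0.23. Those of Pop4, Pop5, Rpp14, Rpp21, Pop7 and Rpp25l did not. The interval of Pop1 itself ran from 0.07 to 0.40, and whether the guide difference varies between genes was not tested. The 3 libraries with sgRNA 15 were at 14.9 to 16.5 CPM and the 3 with sgRNA 11 at 12.2 to 13.8 CPM. The call was lost with DESeq2 and without either of 2 libraries, as given above.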

How the results depend on the processing

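Over the alternatives, 4 to 6 of the 7 tested partners of Pop1 were called lower with sgRNA 11, and likewise with sgRNA 15, and 0 were called higher. Pop1 ranged from -1.89 to -1.75 with sgRNA 11, where -1.89 came from the GC and length correction, and from -1.65 to -1.52 with sgRNA 15. Between the guides, the count of subunits called higher in sgRNA 15 was 0 with DESeq2, and 0 to 1 with a library left out. Same-numbered libraries correlated at -0.00774 to 0.0576 in their deviations from the group mean. Of 9 libraries, 3 correlated best with their own number in both other groups. Correlations this weak cannot decide whether libraries of the same number were paired. With the replicate block edgeR called 8940, 8550 and 4695 genes for sgRNA 11, sgRNA 15 and the guides' difference, against 8849, 8459 and 4502, and the counts of subunits were unchanged. The GC and length correction moved calls towards lower, to 3935 higher and 4924 lower with sgRNA 11 and 3689 and 4862 with sgRNA 15, against 4484 and 4365, and 4335 and 4124.

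Signs turned for values that were not called. With the GC and length correction these were Pop4 (-0.029 with sgRNA 11, -0.044 with sgRNA 15, -0.036 for the mean of guides), Slc12a9 (-0.065), Gigyf1 (-0.066) and Polr2k (0.022) with sgRNA 15, and Pop7 (0.050) and Rpp25l (0.030) between the guides. With library size alone Rpl30 was at 0.013 with sgRNA 15, and with limma-voom Ephb4 was at 0.030 with sgRNA 11. With 1 library left out, values with sgRNA 15 ranged from -0.028 to 0.117 for Pop4, -0.016 to 0.109 for Slc12a9, -0.012 to 0.070 for Gigyf1, -0.096 to 0.038 for Rpl30 and -0.055 to 0.506 for Matn2, and Ephb4 ranged from -0.514 to 0.188 with sgRNA 11. Between the guides, Pop4 ranged from -0.061 to 0.067 and Pop7 from -0.112 to 0.014. The cause was not tested. Rpp38 was left out by the filter of 5 CPM. Depth limits Rpp25 and, at 68 to 147 reads, Rpp38.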
